A study of Homo sapiens with 6 samples.

Results

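Of 10 long noncoding RNA genes with known roles in the nucleus or in tumours, 3 could be read in SH-SY5Y neuroblastoma cells with and without manganese. They were MIR7-3HG, MALAT1 and DLEU2, with 7 probe sets among the 49395 on the array. The genes were chosen by name, with the manganese-against-control differences of these arrays already known from an earlier analysis. Those differences are therefore given as a description, with no p-value for a member. Where a member is said to pass or not to pass the whole-array threshold, or has an interval, that describes its place in the fit and supports nothing further. A probe set, a group of short probes read as 1 value, was taken where the platform annotation gave it exactly 1 gene symbol and that symbol was on the list. MIR17HG and TUG1 occurred only on probe sets annotated to several genes, and NEAT1, MEG3, MIAT, PVT1 and H19 are not analysed here.

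The series holds 6 Affymetrix arrays of total RNA. SH-SY5Y is an established human neuroblastoma line of noradrenergic, neuron-like character, and 1 line was used. Untreated cultures gave 3 arrays, and cultures exposed for 24 h to 100 µM manganese, which the labels state to be the median lethal concentration divided by 5, gave the other 3. Both groups grew in a mixture of MEM and F12 with 10% serum from fetal calves. The labels name no vehicle for the controls. They call the replicates biological without saying whether cultures were started separately, so the spread between arrays may be partly technical. It compares RNA levels with and without the metal. In such bulk samples, fewer cells with a transcript and less of it per cell cannot be told apart.

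Long noncoding RNAs are transcripts with no known protein product, and many act where they are made. MALAT1 is an abundant RNA of nuclear speckles, the bodies that store splicing factors, and its 3′ end is cut rather than polyadenylated in the usual way. MIR7-3HG and DLEU2 are host genes, which means that microRNAs are cut out of their transcripts: miR-7 from MIR7-3HG, and miR-15a and miR-16 from DLEU2. In the nervous system miR-7 is known as a microRNA of neuroendocrine cells that lowers alpha-synuclein, while miR-15a and miR-16 are tumour suppressors lost with the DLEU2 locus in chronic lymphocytic leukaemia. The arrays read the host transcripts and not the mature microRNAs.

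The mature microRNAs that these hosts carry are shown because the seed sets which mRNAs they bind. Sequences come from RefSeq (GRCh38.p14), run 5′ to 3′, and have the seed (bases 2 to 8) in capitals. They lie at chr19:4770700-4770723 (plus strand) for miR-7-5p and, on the minus strand, at chr13:50049167-50049188 for miR-15a-5p and chr13:50049027-50049048 for miR-16-5p.
hsa-miR-7-5p: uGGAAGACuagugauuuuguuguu
hsa-miR-15a-5p: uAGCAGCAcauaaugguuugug
hsa-miR-16-5p: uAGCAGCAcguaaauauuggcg
The microRNAs of DLEU2 share 1 seed and 16 of 22 positions, including the first 9 bases. Their seed occurs in 7 of the 2370 mature microRNA names of the table, among them miR-15b-5p, miR-195-5p and miR-497-5p. The seed of miR-7-5p occurs in miR-7-5p alone. The same mature miR-7-5p is also listed for MIR7-1, and the same miR-16-5p for MIR16-2, so a host transcript is not the sole source of its microRNA.

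The precursor of miR-7-3 begins 1565 bases after the annotated start of MIR7-3HG, at chr19:4770670-4770779 on the plus strand. It is printed with the mature miR-7-5p in capitals, at positions 31 to 54 of the 110 bases.
MIR7-3 hairpin: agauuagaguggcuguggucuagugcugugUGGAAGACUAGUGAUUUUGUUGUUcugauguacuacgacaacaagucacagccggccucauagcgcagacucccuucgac

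MIR7-3HG was about 2-fold higher in manganese-exposed cells, and its 6 arrays fell into separate groups. Its single probe set (11757689_a_at) read 7.14, 7.21 and 7.17 on controls 1, 2 and 3 on the log2 scale, and 8.01, 8.20 and 8.21 on the manganese arrays. Every manganese array lay above every control array, and within each group the values were close together. Such separation was common: 19.0% of all tested probe sets had groups that did not overlap, 9.40% with manganese higher. The means were 7.17 ± 0.04 in controls and 8.14 ± 0.11 in manganese (SD, n = 3). The difference was 0.96 with an SE of 0.11 and a 95% interval of 0.72 to 1.21 (limma), or 1.95-fold. Against control 2 alone, whose spike-in RNAs read as high as those on the manganese arrays, it was 0.93. The pooled SD within groups, which also enters the limma threshold known when the genes were listed, was 0.08 against a median of 0.17 over the 29871 probe sets tested, and 87.7% of them had a larger SD.

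**Figure D1:**
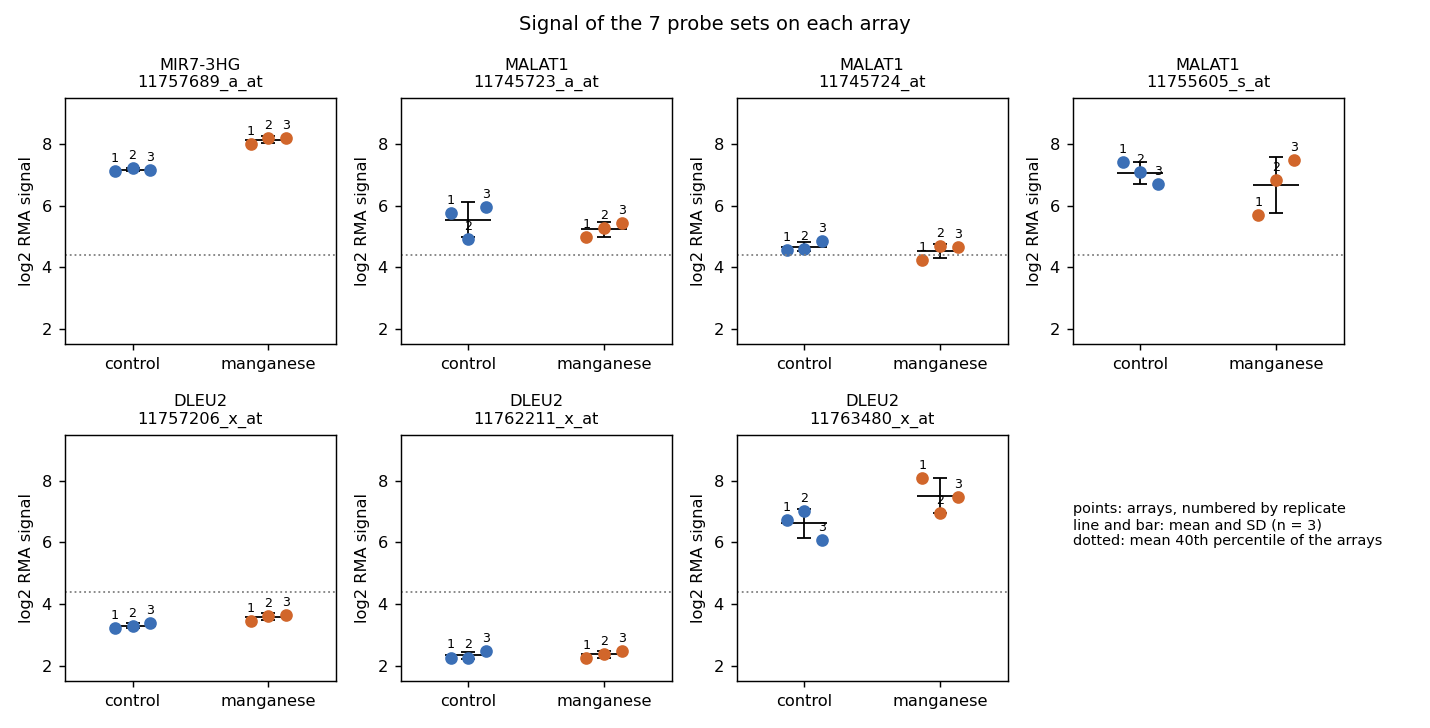
Log2 RMA signal (vertical axis) of the 7 probe sets in control and manganese arrays, with points numbered by replicate and the mean and SD of each group (n = 3); the dotted line is the mean 40th percentile of the arrays. The groups of MIR7-3HG are apart, while those of the MALAT1 probe sets overlap and 2 of the 3 DLEU2 probe sets lie below the dotted line.

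MIR7-3HG was the 1 member probe set past the threshold of a limma adjusted p of 0.05, out of 5 that entered the whole-array fit. Over the whole array 32 of 29871 probe sets passed, a share of 0.107%, with 31 higher (0.104%) and 1 lower (0.00335%). With arrays centred on housekeeping genes the split was 244 higher and 206 lower. Because this contrast was known when the members were listed, nothing is read from the count of members. The call was not made without control 3 (difference 0.96) or without manganese 1, 2 or 3 (1.03, 0.93 and 0.93), and it was kept without control 1 or control 2. It was also not made against control 2 alone or with spike-in level as a term, where the difference was 0.93. The size of the difference thus stayed between 0.93 and 1.03 in these fits.

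The promoter of MIR7-3HG is shown because this was the member whose groups did not overlap at a level above the filter on dim signals. It covers 250 bases before to 50 bases after the annotated start, at chr19:4768855-4769154 on the plus strand (RefSeq, GRCh38.p14), with the motif matches in capitals.
MIR7-3HG promoter: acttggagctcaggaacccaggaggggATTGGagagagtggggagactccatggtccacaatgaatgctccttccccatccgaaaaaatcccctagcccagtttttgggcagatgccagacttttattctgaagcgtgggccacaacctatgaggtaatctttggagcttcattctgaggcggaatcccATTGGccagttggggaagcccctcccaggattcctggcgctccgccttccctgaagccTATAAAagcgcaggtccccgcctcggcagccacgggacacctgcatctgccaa
The search covered both strands. It used the cAMP response element TGACGTCA and its core TGACG, the AP-1 motif TGANTCA, the E-box CACGTG and the hypoxia core ACGTG within it, the metal response core TGCACNC or TGCGCNC, the CCAAT box CCAAT and the TATA box TATAAA. The window held 2 CCAAT boxes, both on the minus strand and first matched at positions -223 and -61 from the start. It also held 1 match to the TATA box letters, which began at -3 and so ran across the annotated start. Whether any match works as a promoter element was not tested. Of the 35116 promoters in the table, 34.6% held a CCAAT box and 11.5% a TATA box. The letters of the other motifs were not in this window, and they occur in 1.85% (cAMP response element) to 29.6% (metal response core) of all promoters. The upstream DLEU2 promoter held 2 TGACG cores, 1 E-box with its 2 overlapping hypoxia cores and 1 TATA box. The upstream MALAT1 promoter held 1 TGACG core and 1 metal response core. The other annotated DLEU2 start had no match, and the other MALAT1 start had 1 TATA box.

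MALAT1 showed no separation of the groups at any of its 3 probe sets, and the probe sets did not rank the arrays alike. The brightest of them (11755605_s_at, whose suffix marks probes shared between transcripts) read 7.41, 7.10 and 6.70 in controls 1 to 3 and 5.69, 6.84 and 7.49 in the manganese arrays. Both the lowest and the highest value therefore came from manganese arrays, manganese 1 and manganese 3. Its means were 7.07 ± 0.36 and 6.67 ± 0.91 (SD, n = 3), with a difference of -0.40 and a 95% interval of -1.34 to 0.54. Within groups its SD was 0.69, and 5 of the 29871 probe sets tested had a larger one.

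A second MALAT1 probe set (11745723_a_at) read 5.77, 4.91 and 5.97 in the controls and 4.97, 5.29 and 5.43 in manganese. Here control 2 was the lowest array, and controls 1 and 3 lay above all manganese arrays. The difference was -0.32 (-0.93 to 0.29) with all controls and 0.32 against control 2 alone. It was -0.64 without control 2 and -0.11 without control 3. The mean level of the poly(A) spike-in RNAs divided the arrays the same way. It was 5.81 to 6.14 in controls 1 and 3 and 7.79 to 7.91 in control 2 and the manganese arrays. With spike-in level as a term in the fit the difference was 0.32. Control 2 is the only control with a level like that of the manganese arrays. That fit therefore cannot tell spike-in level apart from other traits of control 2. Only 2.36% of the probe sets tested had a larger SD than its 0.43.

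The dimmest MALAT1 probe set (11745724_at) read 4.57, 4.60 and 4.84 in the controls and 4.25, 4.68 and 4.65 in manganese. These values are near the level used as a filter on dim signals, the 40th percentile of each array (4.37 to 4.40), and manganese 1 was below it. The difference was -0.15 (-0.49 to 0.20), -0.07 against control 2, -0.06 without control 3 and -0.01 without manganese 1. All 3 probe sets thus had negative differences with all controls, each with an interval that includes 0, and manganese 1 was the lowest of the manganese arrays at each.

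DLEU2 had a higher mean in manganese at the 1 probe set above the filter, but its groups overlapped and it was not past the threshold. That probe set (11763480_x_at) read 6.73, 7.03 and 6.09 in controls 1 to 3 and 8.09, 6.96 and 7.47 in manganese 1 to 3. Manganese 2 lay just below control 2, and the other manganese arrays lay above all controls. The means were 6.62 ± 0.48 and 7.51 ± 0.57 (SD, n = 3). The difference of 0.89 had a 95% interval of 0.16 to 1.62 and became 0.48 against control 2. With arrays centred on housekeeping genes the difference was 0.93 and passed the threshold. In that setting 450 of all 29871 probe sets passed, against 32 in the main fit. The DLEU2 probe set passed in no other alternative fit. Within groups its SD was 0.53, and 0.529% of the probe sets tested varied more.

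The other DLEU2 probe sets were below the 40th percentile on all 6 arrays and were not tested. Probe set 11757206_x_at read 3.22, 3.27 and 3.38 in controls and 3.45, 3.62 and 3.65 in manganese. Its manganese arrays lay above its controls by 0.29 on average (95% interval 0.06 to 0.52 in the fit without a filter), at a level where background limits the difference. Over all tested probe sets, 19.0% had groups that did not overlap, 9.40% with manganese higher and 9.59% with manganese lower. Probe set 11762211_x_at read 2.26, 2.26 and 2.47 in controls and 2.25, 2.37 and 2.47 in manganese, and its groups overlapped throughout. The suffix of all 3 DLEU2 probe sets marks probes that can also match other sequences, so other transcripts may add to these signals.

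**Figure D2:**
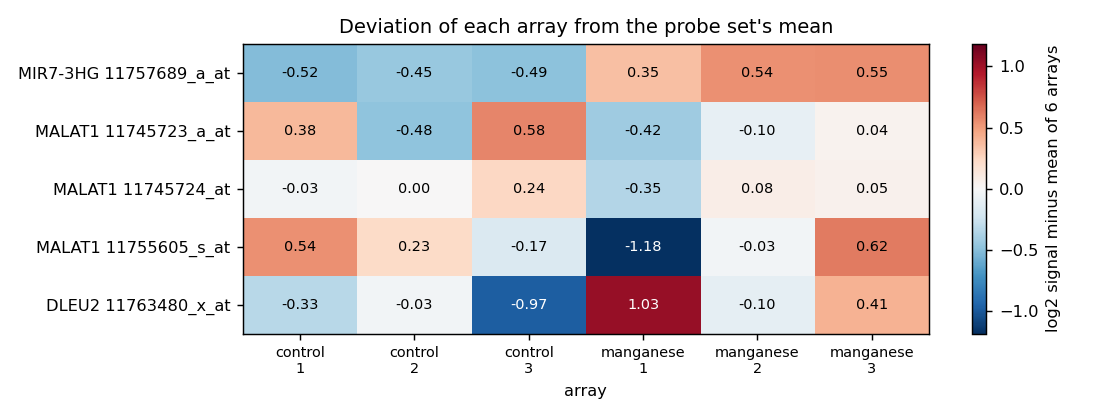
Deviation of each array (columns) from the mean of its probe set over the 6 arrays, on the log2 scale, for the 5 probe sets past the filter (rows). MIR7-3HG is negative in every control and positive in every manganese array, whereas manganese 1 carries both the lowest deviation, -1.18 for MALAT1 11755605_s_at, and the highest, 1.03 for DLEU2.

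Manganese 1 was thus at the extreme for both genes with the widest spread. At 11755605_s_at of MALAT1 it was 1.18 below the mean of the 6 arrays, and at 11763480_x_at of DLEU2 it was 1.03 above. For MIR7-3HG the same array was 0.35 above its mean, the least of the manganese arrays. Without manganese 1 the difference of 11755605_s_at changed from -0.40 to 0.09, and that of DLEU2 from 0.89 to 0.60. Without manganese 3 the MALAT1 value was -0.81, and without control 1 it was -0.23.

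**Figure D3:**
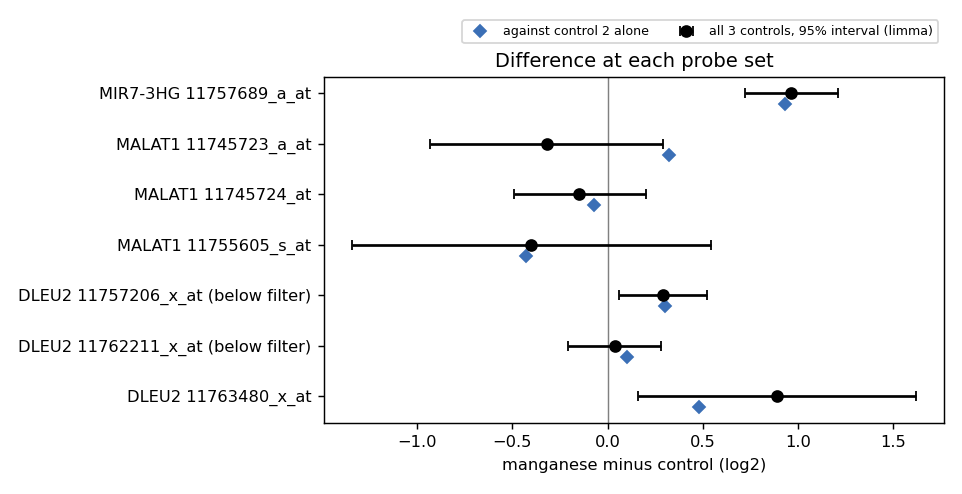
Manganese minus control (horizontal axis, log2) at each of the 7 probe sets, with limma 95% intervals from all 3 controls (black, n = 3 per group) and the value against control 2 alone (blue diamonds). The interval of MIR7-3HG runs from 0.72 to 1.21, those of the MALAT1 probe sets include 0, and 11745723_a_at lies on opposite sides of 0 for the 2 sets of controls.

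Of the genes that contain other miR-7, miR-15 or miR-16 loci, 3 were tested and 0 passed the threshold. MIR7-1 lies within HNRNPK, which encodes an RNA-binding protein of paraspeckles, and HNRNPK read 11.08 ± 0.31 in controls and 11.02 ± 0.10 in manganese (SD, n = 3), a difference of -0.06 (95% interval -0.44 to 0.32). AEN, the p53-inducible nuclease gene that contains MIR7-2, differed by 0.20 (-0.17 to 0.57). SMC4, the condensin subunit gene that contains MIR15B and MIR16-2, differed by 0.07 (-0.37 to 0.51), and its 4 probe sets ranged from -0.56 to 0.07. Against control 2 the SMC4 value was 0.50. TRIM59-IFT80, a readthrough gene that also spans MIR15B and MIR16-2, is not analysed here. At that threshold 19 of the 13407 genes tested at 1 probe set per gene passed (0.142%), 18 of them higher (0.134%) and 1 lower (0.00746%).

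Genes next to the members on the chromosome did not pass either. The 2 nearest protein-coding genes on each side gave 10 tested genes, with a median difference of 0.12 against 0.02 over all genes tested, and -0.05 against control 2. At an unadjusted p under 0.05 in limma there were 0 of the 10, where 1719 of all 13407 genes tested (12.8%) had such a p. Beside MIR7-3HG, the growth factor gene MYDGF differed by -0.07, the dipeptidyl peptidase gene DPP9 by -0.01 and FEM1A, a substrate receptor of ubiquitin ligases, by 0.03. TICAM1, the adaptor of Toll-like receptor 3, differed by 0.36 (95% interval -0.01 to 0.74), and by 0.07 against control 2. Its groups did not overlap, as for 19.8% of all genes tested. Beside MALAT1, SLC25A45 differed by 0.23, FRMD8 by -0.08 and LTBP3, which binds latent TGF-beta, by 0.25. Beside DLEU2, TRIM13 differed by 0.22, with probe sets from -0.53 to 0.22. DLEU7 differed by -0.02 and RNASEH2B, a subunit of ribonuclease H2, by 0.41, with probe sets from -0.12 to 0.41.

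No mRNA passed among those that encode proteins of nuclear speckles, where MALAT1 resides, or of paraspeckles, which form on NEAT1. Of 12 nuclear speckle genes, all tested, 11 had negative differences and the median was -0.13, and 0.01 against control 2. The median was -0.09 without control 1, -0.28 without control 2, -0.27 without control 3 and -0.20 without manganese 3. At an unadjusted p under 0.05 there were 3 of the 12 (25%, against 12.8% of all genes). SON, the scaffold of speckles, differed by -0.70 (SE 0.20) and the splicing factor gene SRSF2 by -0.56 (SE 0.17). SRRM2, the other scaffold, differed by -0.15 and SRSF1 by -0.09. Of 14 tested paraspeckle genes 9 were negative, with a median of -0.04, 0.06 against control 2, 0.04 without control 1, -0.10 without control 2 and -0.01 without manganese 2. Among them 0 had an unadjusted p under 0.05. NONO differed by -0.07, PSPC1 by 0.03 and RBM14 by -0.01.

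Genes that process microRNAs or nuclear RNA had mostly negative differences, and 0 passed. Of 15 tested genes 11 had negative differences, with a median of -0.20, or -0.07 against control 2, and 4 had an unadjusted p under 0.05 in limma (26.7%, against 12.8% of all genes). The nuclease DROSHA, which cuts primary microRNA transcripts, differed by -0.35 and its partner DGCR8 by -0.45 (SE 0.14). DICER1, which cuts the precursor in the cytoplasm, differed by -0.26 and the export receptor XPO5 by -0.45. Among 11 chromatin partners of long noncoding RNAs the median was -0.19, 0.05 against control 2, 0.03 without control 1, -0.30 without control 2 and -0.09 without manganese 2. None passed, and 1 (9.09%) had an unadjusted p under 0.05. In that list EZH2, the methyltransferase of Polycomb complex PRC2, differed by -0.47, EZH1 by -0.38, SUZ12 by 0.11 and EED by 0.32. A further list held transcription factors written down as possible regulators of host genes. Whether they act on those genes was not tested. Among the 11 genes of that list above the filter the median was -0.07, 0.03 against control 2 and 0.05 without control 1. Without control 2 it was -0.17, and without manganese 1, 2 or 3 it was -0.11, -0.02 and -0.16. None passed, and 2 (18.2%) had an unadjusted p under 0.05. MYC differed by -0.40, MYCN by 0.01, MAX by -0.07 and E2F1 by 0.27.

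No mRNA on the lists of known targets of the hosted microRNAs passed. The 11 tested miR-7 targets had a median of 0.05, -0.04 against control 2, -0.01 without control 1 and 0.01 without manganese 2, and a range from -0.28 to 0.13, with 0 at an unadjusted p under 0.05 in limma. EGFR differed by 0.11, the insulin receptor substrates IRS1 by 0.05 and IRS2 by -0.28, and KLF4 by -0.14. The 12 tested targets of miR-15 and miR-16 had a median of -0.02, 0.03 against control 2, -0.05 without control 1, 0.00 without control 2 and -0.01 without manganese 1, again with 0 at an unadjusted p under 0.05. BCL2 differed by -0.51 (SE 0.24), and its 4 probe sets ranged from -0.85 to 0.14. The cyclin genes CCND1 and CCNE1 differed by 0.08 and -0.04, and CDC25A by -0.14. For the miR-17-92 cluster of MIR17HG the 13 tested targets had a median of 0.06, and 0.02 without manganese 2, with 2 (15.4%) at an unadjusted p under 0.05. BCL2L11 differed by -0.14, CDKN1A by 0.45, TGFBR2 by 0.06 and E2F1 as given among the transcription factors.

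**Figure D4:**
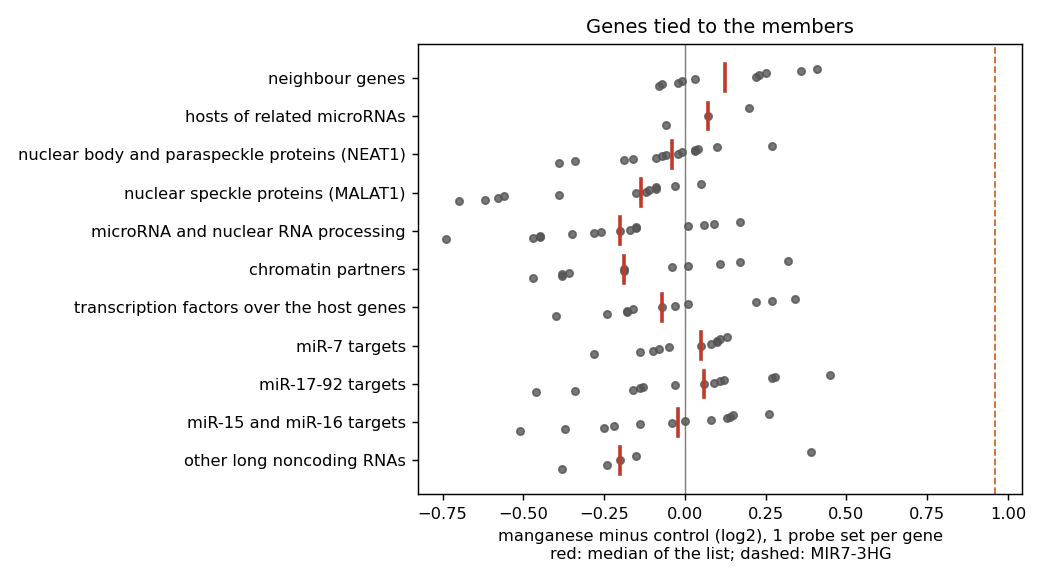
Manganese minus control (horizontal axis, log2) for genes tied to the members, with 1 point per gene, the median of each list in red and the MIR7-3HG value of 0.96 as a dashed line. No gene of these lists reaches the dashed line, and the lists of microRNA targets lie on both sides of 0.

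Among all long noncoding RNAs, MIR7-3HG was the 1 gene past the threshold of 212 tested genes of that RefSeq class (0.472%). Over all genes tested 0.142% passed. MIR7-3HG was listed with this contrast known, and 0 genes of the class passed once the members were left out. Without the members, 209 genes of the class had a median difference of 0.05, and 64.1% were positive, against 0.02 and 54.1% over all genes tested. At an unadjusted p under 0.05 there were 19 of the 209 (9.09%, against 12.8% of all genes). With the members included the class median was 0.05, and it was 0.01 without control 1 and 0.09 without control 3. Groups did not overlap for 20.3% of the class and 19.8% of all genes. On the list of other well-known long noncoding RNAs 5 of 30 genes were tested and 0 passed, with 2 at an unadjusted p under 0.05 in limma. Their median was -0.20, and -0.13 without control 3. CRNDE differed by 0.39, NORAD, a sponge of Pumilio proteins, by -0.20, MIR22HG by -0.15 and DLEU1 by -0.38 (SE 0.12). DLEU1 adjoins DLEU2, and with the main probe set of each its difference had the opposite sign.

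The genes whose 6 arrays followed MIR7-3HG most closely were ATF3 (Pearson r = 0.9984), H3C10 (0.9925) and GFRA3 (0.9887), taken over 6 arrays that share the contrast by which MIR7-3HG was listed. ATF3, a stress-inducible transcription factor, read 6.15, 6.29 and 6.26 in controls and 7.47, 7.75 and 7.66 in manganese. H3C10 read 3.47, 3.69 and 3.75 in controls, all below the filter on dim signals, and 4.57, 4.82 and 4.87 in manganese. It passed the filter through its manganese arrays alone, so higher values in manganese follow from how it was let in. Nothing is read from its likeness to MIR7-3HG. GFRA3 read 4.44 to 4.46 in controls and 4.61 to 4.64 in manganese, so its likeness to MIR7-3HG is one of shape and not of size. For the brightest MALAT1 probe set the closest were PAQR3 (0.9874), QKI (0.9789) and TOP1 (0.9720). Each of them was lowest in manganese 1, as MALAT1 was. They were picked from 13407 genes for that likeness over 6 arrays, so the shared low array follows from the choice.

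The arrays and their identity bear on all of these values. Pairs of manganese arrays had correlations of 0.993 to 0.996 across 13407 genes, and pairs of controls had 0.975 to 0.992. Pairs of a control and a manganese array had 0.967 to 0.994, so the highest of these was above every pair of controls. Of 10 noradrenergic markers 9 were above the filter, with PHOX2A at 11.55 ± 0.22, HAND2 at 13.13 ± 0.01, GATA3 at 11.97 ± 0.14 and DBH at 11.97 ± 0.27 in controls. Of markers of other cells, 6 of 8 mesenchymal, 4 of 6 glial and 2 of 6 blood genes passed the filter, and 0 of all 21 marker genes tested passed the threshold in limma, with 3 at an unadjusted p under 0.05 (12.8% of all genes). The differences were 0.12 for COL1A1, -0.16 for COL1A2, -0.12 for PRRX1 and -0.49 for FN1 among mesenchymal genes. They were -0.06 to -0.03 for the glial genes SOX10, S100B, GFAP and ERBB3, and 0.17 and 0.10 for CD3E and HBB of blood cells. The housekeeping genes GAPDH, ACTB, PPIA and TBP differed by 0.15, -0.19, -0.38 and -0.16. Because RMA gives all arrays one distribution, a shift in total RNA shared by most genes would not be seen.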

How the data were processed

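The authors deposited log2 expression values from RMA. Expression Console by Affymetrix is the program that the submitters' processing notes list. No source used here gives a version or a genome build. Probe sets were named from the platform annotation, which gave 1 symbol for 44988, several for 1832 and none for 2473; 102 Affymetrix controls were left out. Testing required a signal over an array's own 40th percentile in 3 or more of 6 arrays. All 29871 such probe sets were fitted in R 4.3.3 by limma 3.58.1 (lmFit, eBayes, two-sided, with group as the only term), with Benjamini-Hochberg adjustment and a threshold of 0.05. For gene lists, the probe set with the highest mean stood for each gene, and 13407 genes were fitted in the same way. Of 182 listed genes 133 were tested.

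The members and lists were chosen with earlier results of these data known. Named genes were every member probe set, all neighbours, the first 4 tested genes of each list in written order with any past the threshold, and the 3 genes most correlated with the leading probe set of MIR7-3HG, MALAT1, MIR17HG and NEAT1, of which the last pair had none. Hosts of other microRNA copies and the promoter motifs were added later. The fitting script was tested on simulated data. Arrays give no counting depth, so the 3 arrays per group limit precision.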

Additional observations from a re-analysis of the deposited data

How the results depend on the processing

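The MIR7-3HG difference lay between 0.93 and 1.03 under the 15 alternatives. Other filters, other eBayes options, the gene level and a replicate block cannot change it, and left it at 0.96. The gene was listed with this contrast known, so its positive sign supports nothing further. The count of probe sets called, 32, became 450 with arrays centred on housekeeping genes, 19 at the gene level, 7 against control 2 alone and 5 with spike-in level as a term, and 0 to 75 when single arrays were left out. Member probe sets called were 2 with housekeeping centring, 0 against control 2 alone, 0 with spike-in level as a term, and 0 to 1 when single arrays were left out. The labels give both groups replicate numbers 1 to 3. Same-numbered arrays did not deviate together (correlations of -0.30, 0.15 and -0.27), and not every array correlated best with its own number. The labels do not say whether same-numbered arrays were handled together. With 3 arrays per group these correlations cannot decide it. With the replicate number as a block, 15 probe sets and 0 members were called. Of the genes on the lists, 0 passed the threshold under any of these settings.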

Other observations

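Probe sets annotated to several genes, 5 of which include a listed symbol, were kept out of the report and are given by their full annotation. The probe set annotated jointly to DLEU2 and DLEU2L (11744730_s_at) read 7.56, 7.81 and 6.82 in controls 1 to 3 and 8.85, 7.88 and 8.21 in manganese 1 to 3. Its lowest array was control 3 and its highest manganese 1, as at the brightest probe set of DLEU2 alone. Its groups did not overlap, as at 19.0% of all probe sets tested (9.40% with manganese higher). The difference was 0.92 (95% interval 0.22 to 1.62) and 0.50 against control 2, and it did not pass in limma. Whether the 2 probe sets share probes was not tested.

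The 3 probe sets annotated jointly to MIR17HG and microRNAs of its cluster were all below the filter, at 2.93 to 3.74 in controls and 2.90 to 3.93 in manganese, with overlapping groups. The probe set annotated to EWSR1 and TUG1 together read 9.99, 9.71 and 9.48 in controls and 10.17, 9.81 and 9.78 in manganese, a difference of 0.20 (-0.18 to 0.58).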
